A study of Homo sapiens with 16 samples.

Results

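The genes described here lie side by side on the short arm of human chromosome 10. In order along the chromosome they are SFMBT2, ITIH5, ITIH2, KIN, ATP5C1, TAF3 and GATA3. They were chosen by symbol from the count table, because ITIH2, KIN, ATP5C1 and TAF3 were higher in 1 of the study's knockouts and the flanking genes frame that stretch. All 7 symbols were found among the 33121 rows of the table. Of these, 6 had enough counts to enter the test across 15569 genes, and ITIH5 did not.

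The study measured poly-A RNA by sequencing in HAP1, a near-haploid human cell line that grows attached and descends from a chronic myeloid leukaemia line. There were 16 libraries in 4 groups of 4. The first group carried a deletion of SLC30A10, a manganese exporter of the plasma membrane, and the second was its own control set with intact SLC30A10 (+/+). The third group carried a deletion of another gene and is called the second knockout, and the fourth was the control set with that other gene intact, called the second control set. All 4 groups were grown in the same medium with serum, penicillin and streptomycin, and the labels give no treatment or time. The labels do not say whether each knockout line is a single clone, nor whether the 4 libraries of a group came from separate cultures. The p-values below therefore measure only the spread between these libraries, which may be technical.

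Total counts ran from 16058856 to 16648151 per library, so depth was nearly equal across groups. SLC30A10 itself had 3 to 11 counts in the SLC30A10 knockout and 6 to 9 in its control set, too few to check those labels. Of 15569 genes tested, 41.4% were called between the SLC30A10 knockout and its control set, 39.3% between the control sets, and 13.7% between the second knockout and its control set. A gene is called when the adjusted p of edgeR's quasi-likelihood test is under 0.05. Levels are given as CPM, counts scaled to a common library size. Differences are log2 fold changes with their standard error (SE). In bulk libraries, a higher level in every cell and a high level in some of the cells cannot be told apart.

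ITIH2 and ITIH5 encode heavy chains of the inter-alpha-trypsin inhibitor family, secreted proteins that are transferred onto hyaluronan and stabilise the extracellular matrix, and ITIH2 is best known as a product of the liver. KIN encodes a zinc-finger protein of the nucleus that binds DNA and RNA and has been tied to replication and repair. ATP5C1, named ATP5F1C in RefSeq, encodes the gamma subunit, the central stalk that turns inside the mitochondrial ATP synthase. TAF3 encodes a subunit of the general transcription factor TFIID whose PHD finger binds trimethylated lysine 4 of histone H3. GATA3 is a zinc-finger transcription factor of T cells, breast epithelium and trophoblast, and SFMBT2 encodes a protein with MBT repeats related to the Polycomb group.

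In RefSeq coordinates of build GRCh38.p14, the stretch from the start of SFMBT2 to the end of GATA3 covers 916.6 kb. ITIH2 (chr10:7703316-7749520, plus strand, 21 exons) and KIN (chr10:7750962-7787993, minus strand, 13 exons) point towards each other, with 1441 bp between their 3′ ends. KIN and ATP5C1 (chr10:7788177-7807801, plus strand, 10 exons) point away from each other, with 183 bases between their start sites. TAF3 (chr10:7818505-8016631, plus strand, 7 exons) begins 10.7 kb after ATP5C1 ends. From the start of ITIH2 to the end of TAF3 is 313.3 kb. Outside that block lie ITIH5 (chr10:7559270-7666966, minus strand), 36.3 kb before ITIH2, and SFMBT2 (chr10:7158624-7411490, minus strand). GATA3 (chr10:8045333-8075198, plus strand) starts 28.7 kb after TAF3 ends.

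**Figure D1:**
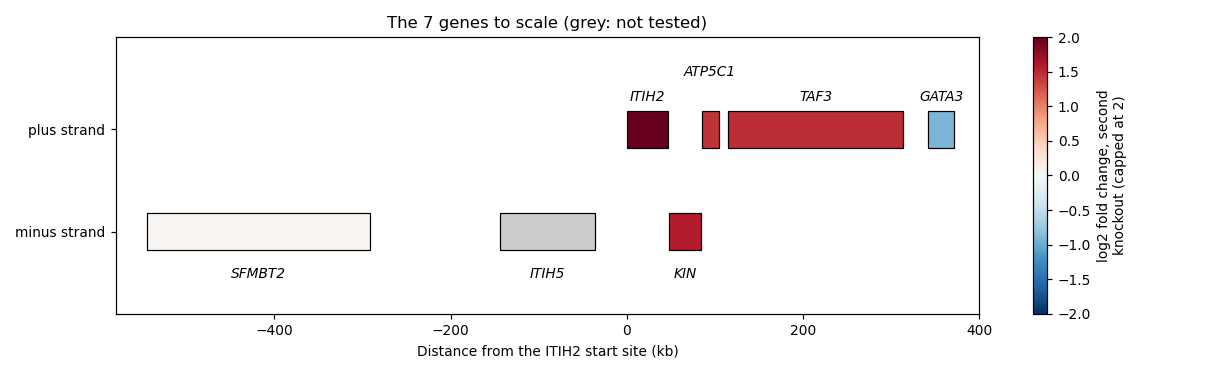
Map of the 7 genes on chromosome 10, drawn to scale in kb from the start of ITIH2. Plus-strand genes are on the upper row and minus-strand genes on the lower. Colour gives the log2 fold change in the second knockout on a capped scale, and ITIH5, which was not tested, is grey. ITIH2, KIN, ATP5C1 and TAF3 are adjacent and fill 313.3 kb of the 916.6 kb shown.

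The start regions of the genes that were higher together are shown because KIN and ATP5C1 share theirs while TAF3 has its own. The sequences are from RefSeq (GRCh38.p14), written 5′ to 3′ on the plus strand, and capitals mark matches to the motifs searched. The first is the whole stretch between the KIN and ATP5C1 start sites (chr10:7787994-7788176), and the second is the 250 bases before TAF3 (chr10:7818255-7818504).
KIN-ATP5C1 shared start region: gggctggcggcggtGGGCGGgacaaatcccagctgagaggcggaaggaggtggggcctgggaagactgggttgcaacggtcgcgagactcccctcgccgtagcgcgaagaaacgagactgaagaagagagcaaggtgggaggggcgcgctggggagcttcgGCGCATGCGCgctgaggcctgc
TAF3 upstream: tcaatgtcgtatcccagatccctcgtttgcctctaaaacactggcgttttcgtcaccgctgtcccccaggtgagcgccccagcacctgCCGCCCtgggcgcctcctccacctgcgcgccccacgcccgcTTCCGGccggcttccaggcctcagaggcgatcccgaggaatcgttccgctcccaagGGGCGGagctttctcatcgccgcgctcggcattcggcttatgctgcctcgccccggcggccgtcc
The capitals in the first sequence are a GC box (GGGCGG) and an NRF1 motif, and those in the second are 2 GC boxes and an ETS motif (CCGGAA, found here on the minus strand as TTCCGG).

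The promoter table gave windows for 6 of the 7 genes, all but ITIH2. Letters were searched on both strands of the 250 bases before each start, in 35116 windows. The NRF1 motif, a palindrome, is in 1.03% of all windows, and both KIN and ATP5C1 hold it. It is a single occurrence, since their windows overlap by 283 of 300 bases. The GC box is in 42.6% of windows and in those of KIN, ATP5C1 and TAF3. It is also in those of the flanking genes, in 1 of 1 window of ITIH5, 2 of 3 of SFMBT2 and 4 of 6 of GATA3. The ETS motif is in 14.5% of windows, in those of ATP5C1 and TAF3 and in 2 of 6 of GATA3. The ATP5C1 match lies in the first transcribed bases of KIN and outside the stretch printed. None of the windows of KIN, ATP5C1 and TAF3 holds CCAAT (32.0% of windows), TATAAA (10.7%), AGATAA (9.17%) or CACGTG (6.34%). The window of ITIH5 holds none of these either, while each is in some window of SFMBT2 or GATA3. GC content was 68.3% in the shared start region and 68.0% before TAF3, against a median of 58.0% over all windows. These matches describe letters only.

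ITIH2 was abundant in the second knockout and near the floor of 3 counts in most other libraries. Its counts in the second knockout were 1572, 1514, 1535 and 1519, which is 93.9 CPM ± 2.75 (SD, n = 4). In the second control set they were 3, 3, 6 and 4, or 0.242 CPM ± 0.0843 (SD, n = 4). The 4 libraries of the second knockout agree closely and lie far from every other library. The log2 fold change was 8.55 ± 0.23 (SE), a 375-fold difference that rests on 16 counts in all in the second control set, and no tested gene had a higher one. This value is a description, because the genes were picked on it.

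KIN, ATP5C1 and TAF3 were 2.96-fold, 2.73-fold and 2.79-fold as high in the second knockout as in its control set, again the values that picked them. KIN had 909, 916, 916 and 956 counts in the second knockout (56.5 CPM ± 1.02, SD, n = 4) and 311, 306, 330 and 311 in the second control set (19.1 CPM ± 0.568, SD, n = 4). ATP5C1 had 11353, 10777, 10178 and 10518 counts against 4067, 3659, 4029 and 4062, or 655 CPM ± 39.4 against 240.0 CPM ± 12.4 (SD, n = 4 each). TAF3 had 1159, 1197, 1118 and 1156 counts against 389, 433, 433 and 416, or 70.8 CPM ± 2.53 against 25.4 CPM ± 1.12 (SD, n = 4 each). In all 3 genes every library of the second knockout was above every other library of the study. Against the second control set alone, libraries without overlap and higher were seen in 7.6% of all tested genes, and in 16.3% counted in both directions. The share of genes above every other library was not counted. The log2 fold changes were 1.57 ± 0.05 for KIN, 1.45 ± 0.05 for ATP5C1 and 1.48 ± 0.06 for TAF3 (SE). They lie high among all genes, since 79 of the 15569 tested genes had a larger log2 fold change than ATP5C1. A fold change of at least 2 upwards was seen in 1.04% of tested genes.

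**Figure D2:**
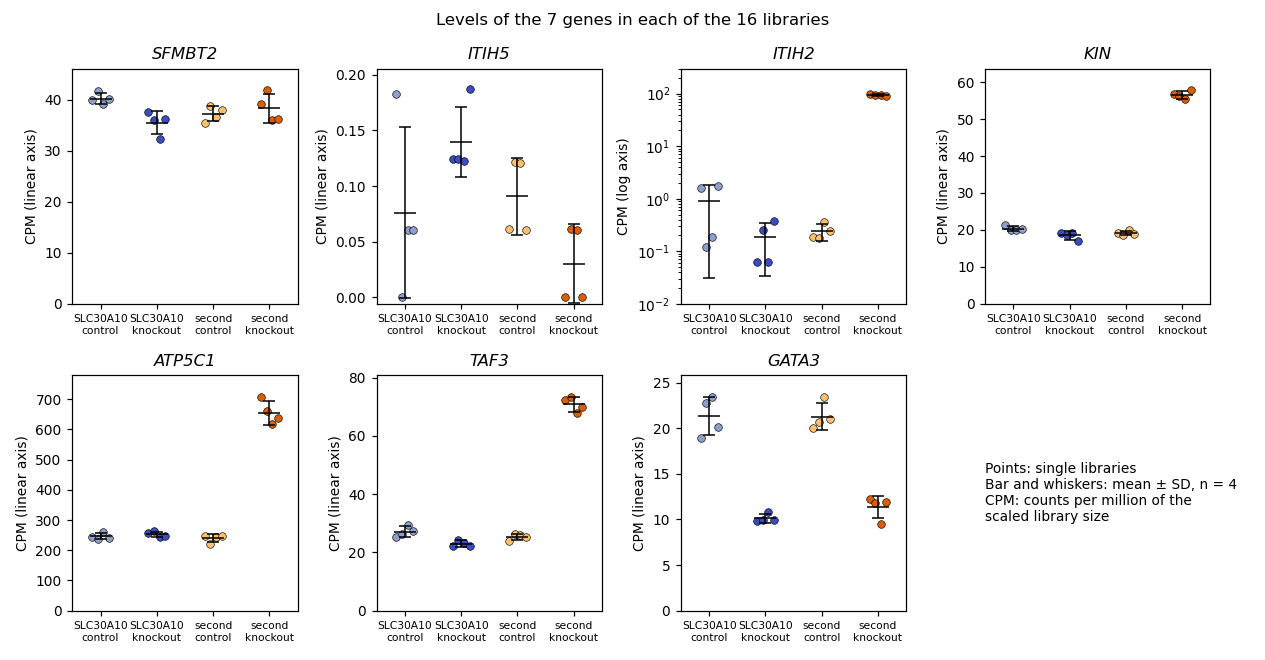
Level of each gene in CPM in each of the 16 libraries, with the mean ± SD of each group (n = 4); ITIH2 has a log axis and the other panels a linear one. ITIH2, KIN, ATP5C1 and TAF3 are high in the 4 libraries of the second knockout, and GATA3 is low in both knockouts.

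The size of the rise was close to equal for the 3 genes that were already expressed. Set against the mean of the second control set, the second knockout stood at 2.96 ± 0.0532 for KIN, 2.73 ± 0.164 for ATP5C1 and 2.79 ± 0.0997 for TAF3 (SD, n = 4). Their ranges over libraries overlap between ATP5C1 and each of the others, while KIN, at 2.91 to 3.03, lies above TAF3, at 2.67 to 2.90. The count ratio of KIN to ATP5C1 was 0.0796 ± 0.0037 in the second control set and 0.0865 ± 0.0050 in the second knockout (SD, n = 4). The ratio of TAF3 to ATP5C1 was 0.106 ± 0.0096 and 0.108 ± 0.0041. The ratio of TAF3 to KIN was 1.33 ± 0.068 and 1.25 ± 0.046. The libraries of the groups overlap in all 3 ratios, while the means of the ratios with KIN differ by more than either SD.

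**Figure D3:**
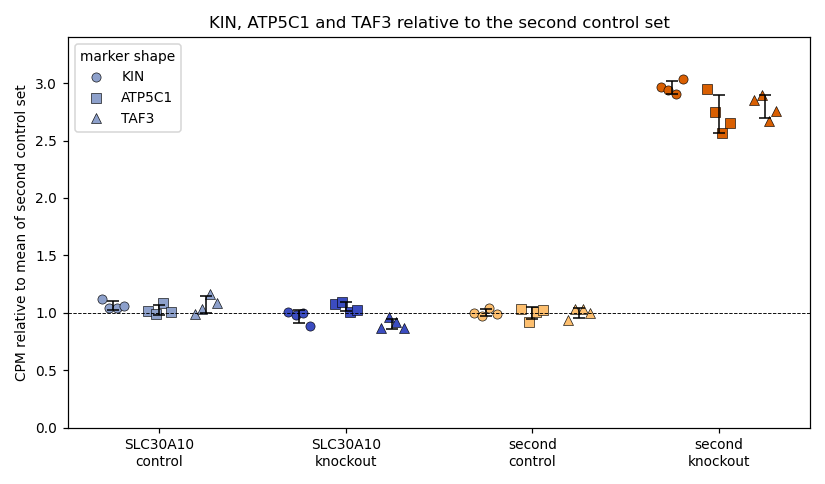
Level of KIN, ATP5C1 and TAF3 in each library divided by the mean of the second control set (linear axis). The 12 values of the second knockout lie between 2.57 and 3.03, and those of the other groups between 0.869 and 1.17.

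The flanking genes, which were chosen to frame the stretch, did not share the rise. SFMBT2 had 629, 683, 594 and 597 counts in the second knockout against 580, 639, 607 and 626 in its control set, a log2 fold change of 0.04 ± 0.06 with overlapping libraries. ITIH5 had 0, 1, 1 and 0 counts against 1, 2, 2 and 1, so a gene of the same family and 36.3 kb away stayed at or under 3 counts in every library of the study and no fold is given. GATA3 went the other way, with 196, 192, 157 and 197 counts (11.4 CPM ± 1.25) against 327, 342, 389 and 345 (21.3 CPM ± 1.49, SD, n = 4 each). Its log2 fold change was -0.91 ± 0.08, 1.88-fold lower, with no overlap between the groups, as for 8.69% of all tested genes in the lower direction. TAF3 and GATA3, with 28.7 kb between them, thus differed in direction.

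Levels can be set between genes only per length, here CPM per kb of the union of exons. In the second control set the order was ATP5C1 at 103, GATA3 at 6.20, TAF3 at 5.20, SFMBT2 at 3.74, KIN at 2.79 and ITIH2 at 0.0718. In the second knockout it was ATP5C1 at 282, ITIH2 at 27.8, TAF3 at 14.5, KIN at 8.26, SFMBT2 at 3.85 and GATA3 at 3.31. ITIH2 moved from the lowest of the 6 to the next below ATP5C1. In the second control set no neighbours in the order overlap in mean ± SD. In the second knockout SFMBT2 (3.85 ± 0.283) and GATA3 (3.31 ± 0.363) overlap in mean ± SD (n = 4).

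The order in the SLC30A10 control set was ATP5C1 at 106, GATA3 at 6.21, TAF3 at 5.57, SFMBT2 at 4.04, KIN at 2.97 and ITIH2 at 0.271 CPM per kb. There GATA3 (± 0.616) and TAF3 (± 0.388) overlap in mean ± SD. In the SLC30A10 knockout it was ATP5C1 at 109, TAF3 at 4.71, SFMBT2 at 3.56, GATA3 at 2.94, KIN at 2.70 and ITIH2 at 0.0552, where GATA3 (± 0.132) and KIN (± 0.162) overlap in mean ± SD. GATA3 stood below SFMBT2 in both knockouts and above TAF3 in both control sets.

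The neighbours further out were not among the genes picked, so they were tested. The edges of the stretch were drawn on the second knockout. A lack of the rise outside it is therefore partly set by that choice. PRKCQ-AS1, the nearest tested gene before SFMBT2 at 0.57 Mb, had a log2 fold change of 0.11 ± 0.13 in the second knockout (adjusted p = 0.647). CELF2, an RNA-binding splicing regulator and the nearest tested gene after GATA3 at 2.39 Mb, was lower, at -0.39 ± 0.06 (adjusted p = 4.02e-05). Of the 10 tested genes on each side, 2 of 20 were called in the second knockout, beside 13.7% of all genes. These were CELF2 and CAMK1D, a calmodulin-dependent kinase, which was higher by 0.20 ± 0.06 on the log2 scale (adjusted p = 0.0328). The 20 log2 fold changes ran from -0.39 to 0.61 with a median of 0.01. Over all 544 other tested genes of chromosome 10, 37 were higher and 28 lower, with a median of 0.0078. In the SLC30A10 knockout 14 of the 20 neighbours were called, beside 41.4% of all genes, 4 higher and 10 lower, with CELF2 at -0.84 ± 0.06 (adjusted p = 2.66e-11). Between the control sets 9 were called, beside 39.3%, 6 higher and 3 lower.

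**Figure D4:**
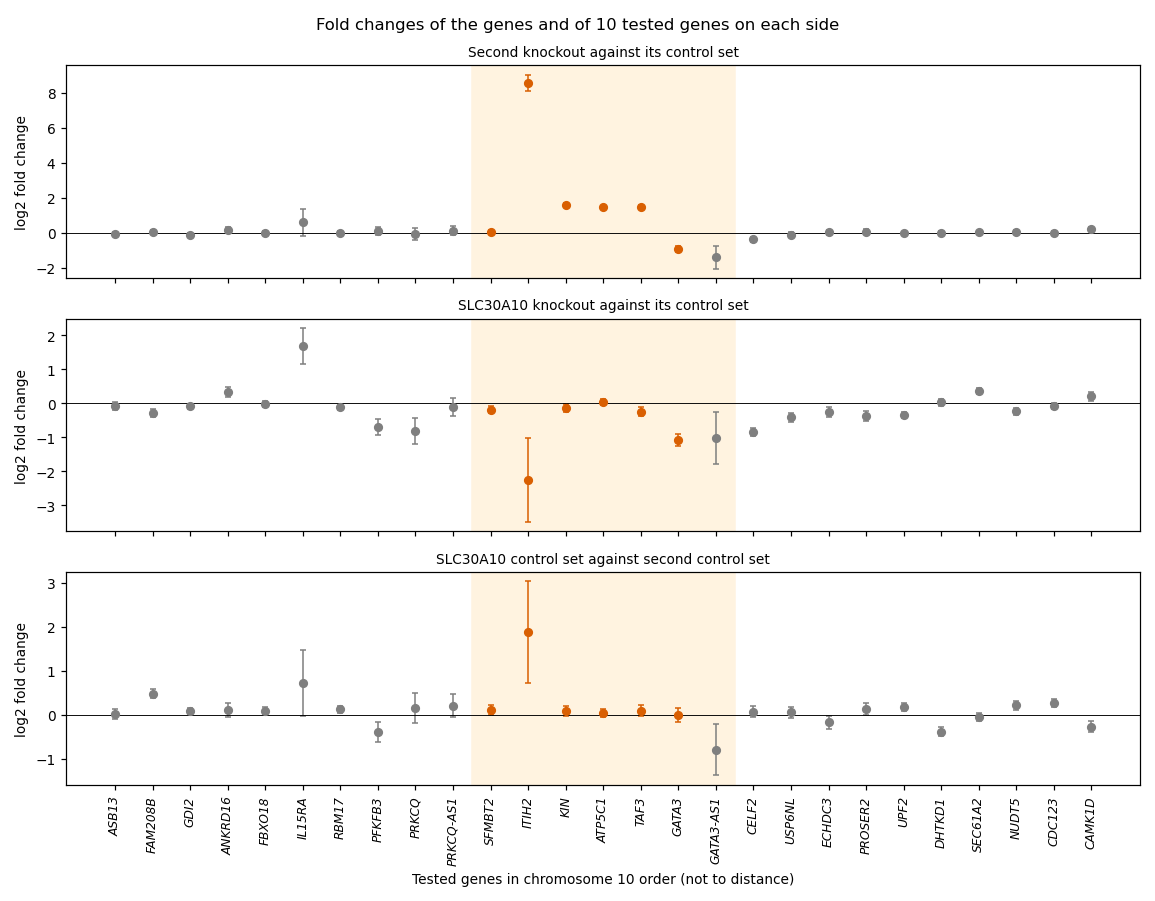
Log2 fold change of the tested genes in chromosome order with 95% intervals, 1 panel for each comparison. Genes described here are orange, and GATA3-AS1 and 10 tested genes on each side are grey; in the second knockout ITIH2, KIN, ATP5C1 and TAF3 stand above those outer neighbours, which lie between -0.39 and 0.61.

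The SLC30A10 knockout gave a comparison that the choice of genes did not use. ITIH2 passed the filter on low counts only through the second knockout, the group that picked it, so it is left out of the counts here. Of the 5 genes that pass with the 8 libraries of this comparison, 3 were called, GATA3, TAF3 and SFMBT2, beside 41.4% of all genes. All 3 were lower, beside 20.2% of all genes called lower. The median log2 fold change over the 5 was -0.18, against -0.0048 over all genes. Libraries did not overlap for 4 of the 5 (GATA3, TAF3, SFMBT2 and KIN), beside 38.3% of all genes, and all 4 were lower, beside 18.6%.

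GATA3 fell in every library of the SLC30A10 knockout. It had 158, 160, 176 and 159 counts in the SLC30A10 knockout (10.1 CPM ± 0.455) against 311, 375, 384 and 331 in its control set (21.3 CPM ± 2.12, SD, n = 4 each). All 4 knockout libraries were below all 4 controls. The log2 fold change was -1.08 ± 0.09 (SE), 2.11-fold lower (edgeR adjusted p = 1.07e-10). GATA3-AS1, an antisense RNA that lies within GATA3, had 3 to 9 counts against 6 to 15, at -1.03 ± 0.39 (adjusted p = 0.0377). The use of strand in counting is not given in the sources used here, so reads of GATA3 and GATA3-AS1 cannot be told apart where they overlap. GATA3-AS1 was also lower in the second knockout, with 5 to 10 counts against 15 to 23, at -1.41 ± 0.33 (adjusted p = 0.00334). Between the control sets GATA3-AS1 was lower in the SLC30A10 set, at -0.79 ± 0.29 (adjusted p = 0.0355).

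TAF3 and SFMBT2 fell by less. TAF3 had 355, 393, 380 and 354 counts against 413, 433, 485 and 451, or 23.0 CPM ± 1.14 against 27.1 CPM ± 1.89 (SD, n = 4 each). Its log2 fold change was -0.24 ± 0.06 (adjusted p = 0.00246). SFMBT2 had 603, 578, 525 and 582 counts against 655, 685, 642 and 658, or 35.5 CPM ± 2.28 against 40.2 CPM ± 1.02 (SD, n = 4 each). Both genes had knockout libraries that lie wholly below the controls. For SFMBT2 the log2 fold change was -0.18 ± 0.06 (adjusted p = 0.0147), and without library 3 of the knockout it was -0.14 (adjusted p = 0.0738), which ends the call.

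KIN and ATP5C1, which share a start region, did not pass the test. KIN had 310, 301, 312 and 271 counts against 351, 327, 326 and 331, a log2 fold change of -0.14 ± 0.06 (adjusted p = 0.0725), although its libraries did not overlap. ATP5C1 had 4158, 4227, 3955 and 3960 counts against 4013, 3921, 4280 and 3954, with overlapping libraries. Its log2 fold change was 0.04 ± 0.05 (adjusted p = 0.547), with a 95% interval from -0.05 to 0.13. The count ratio of TAF3 to ATP5C1 was 0.0854 to 0.0961 in the SLC30A10 knockout and 0.103 to 0.114 in its control set, without overlap. The libraries overlapped in the ratio of KIN to ATP5C1, at 0.0684 to 0.0789 against 0.0762 to 0.0875. They also overlapped in that of TAF3 to KIN, at 1.145 to 1.306 against 1.177 to 1.488.

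ITIH2 was near the floor in the SLC30A10 knockout and high in 2 libraries of its control set. Its counts were 1, 4, 1 and 6 in the knockout and 26, 2, 3 and 29 in the SLC30A10 control set. Control libraries 1 and 4 are high, the other two are at the level of the knockout, and the groups overlap. The log2 fold change was -2.25 ± 0.63 (adjusted p = 0.00522) in the fit of all 16 libraries. With only the 8 libraries of the comparison ITIH2 did not pass the filter, so this call rests on the group where the gene is high. Without control libraries 1 and 4 it was 0.27 (adjusted p = 0.803). With both control sets pooled it was -1.31 (adjusted p = 0.123). In control libraries 1 and 4 KIN was at 21.4 and 20.2 CPM, the highest of the 4 and close to the 19.9 and 19.9 CPM of libraries 2 and 3. ATP5C1, at 244 and 241 CPM, and TAF3, at 25.2 and 27.5 CPM, were highest in library 3.

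Between the control sets 5 genes pass the filter with these 8 libraries. In the fits of all 16 libraries 0 of these 5 were called by edgeR or DESeq2, beside 39.3% of all genes called. There 0 of them had an unadjusted edgeR p under 0.05. In a fit of only these 8 libraries 0 were called and 1 had an unadjusted edgeR p under 0.05. This comparison shares the second control set with the contrast that picked the genes. ITIH2, which passed the filter only through the second knockout, was higher in the SLC30A10 control set by 1.88 ± 0.59 on the log2 scale in the fit of all 16 libraries (adjusted p = 0.0126), beside 18.5% of all genes called higher. That value rests on SLC30A10 control libraries 1 and 4, since it was 1.48 (adjusted p = 0.0716) without library 1, 1.35 (adjusted p = 0.0824) without library 4 and -0.64 (adjusted p = 0.490) without both. GATA3 was at 21.3 CPM ± 2.12 and 21.3 CPM ± 1.49 (SD, n = 4 each), a log2 fold change of 0.00 (adjusted p = 0.983) with a 95% interval from -0.15 to 0.16. For SFMBT2, KIN, ATP5C1 and TAF3 the log2 fold changes were 0.11, 0.09, 0.04 and 0.10 (adjusted p = 0.133, 0.242, 0.562 and 0.210). SFMBT2 was the 1 gene of these 5 whose libraries did not overlap, beside 36.3% of all genes, and 17.4% in the higher direction.

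The partners of ITIH2 in its pathway were partly silent. Of 18 other genes listed for this family and the hyaluronan matrix, 10 had at most 3 counts in every library and 8 had more. The light chain gene AMBP and the heavy chain genes ITIH1, ITIH3 and ITIH6 had 0 to 3 counts in every library, as did TNFAIP6, which transfers heavy chains to hyaluronan, and the hyaluronan synthases HAS1 and HAS2. The third synthase, HAS3, was expressed at 8.57 to 10.8 CPM (group means), and the hyaluronan receptor HMMR at 228 to 247 CPM. ITIH4 had 2 to 13 counts and was not tested, which leaves 7 that were. In the second knockout 1 was higher and 1 lower, beside 13.7% of all genes called. CD44, the main hyaluronan receptor, fell from 1.69 CPM ± 0.270 to 0.323 CPM ± 0.188 (SD, n = 4 each), a log2 fold change of -2.36 ± 0.31 (adjusted p = 2.29e-06). VCAN, a hyaluronan-binding proteoglycan, was higher by 0.25 ± 0.08 (adjusted p = 0.0319), and in the SLC30A10 knockout it was the 1 gene called, at -0.76 ± 0.08 (adjusted p = 2.33e-08). With only the 8 libraries of each comparison VCAN was no longer called in the second knockout (adjusted p = 0.0591), and HAS3 was called in the SLC30A10 knockout at 0.24 (adjusted p = 0.0465, against 0.0520 with all libraries).

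The complexes of ATP5C1 and TAF3 did not follow them in the second knockout, where 13.7% of all genes were called. Of 20 other ATP synthase genes tested, 0 were higher (0 also at an unadjusted edgeR p under 0.05). The 3 called lower were ATP5G3, TMEM70 and ATP5H. Log2 fold changes of the 20 ran from -0.23 to 0.05, with a median of -0.05. With only the 8 libraries of the comparison ATP5H was no longer called (adjusted p = 0.0716). With the replicate number as a block ATP5G1 was called as well, at -0.16 (adjusted p = 0.0312). Of 14 other TFIID genes tested, 0 were called by edgeR or DESeq2 and 0 had an unadjusted p under 0.05, with log2 fold changes from -0.10 to 0.12. In the SLC30A10 knockout, where 41.4% of all genes were called and 20.2% called lower, 6 ATP synthase genes were lower and 0 higher. Among the lower were ATP5D at -0.25 ± 0.05 (adjusted p = 0.000195) and ATP5A1 at -0.16 ± 0.04 (adjusted p = 0.00300). There 3 TFIID genes were higher, led by TAF1 at 0.30 ± 0.05 (adjusted p = 6.51e-06), and 1 was lower.

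**Figure D5:**
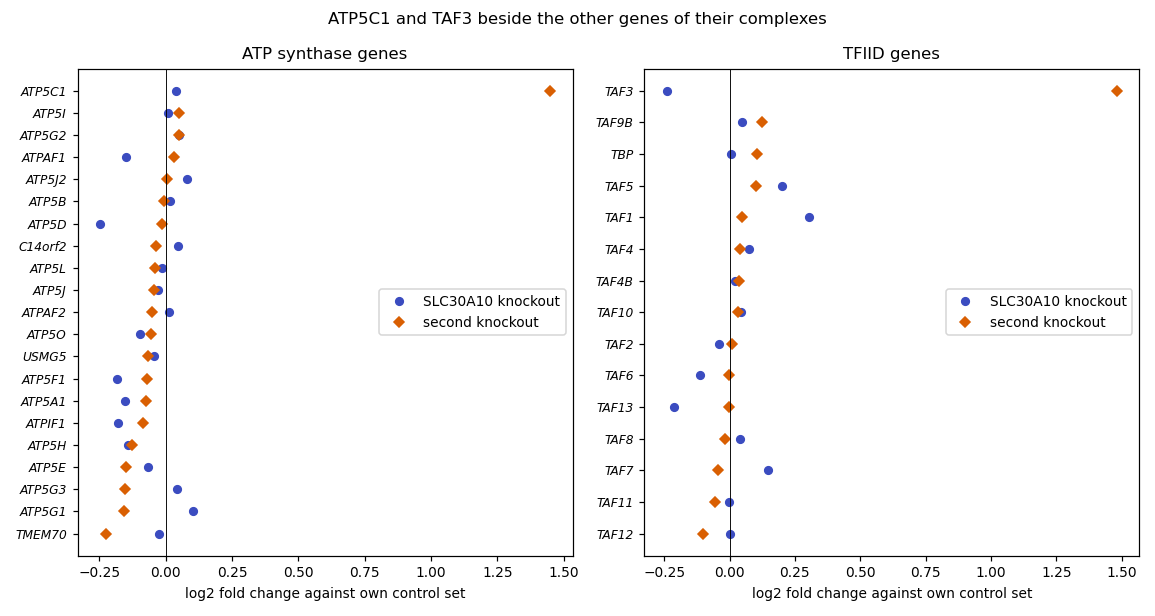
Log2 fold change of ATP synthase genes (left) and TFIID genes (right) in the second knockout (orange diamonds) and the SLC30A10 knockout (blue circles), each against its own control set (linear axis). In the second knockout ATP5C1 and TAF3 stand at 1.45 and 1.48, and the other ATP synthase and TFIID genes lie between -0.23 and 0.12.

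Of 13 genes listed beside KIN, namely METTL22 and replication proteins, 1 was called in the second knockout, beside 13.7% of all genes. It was METTL22, the methyltransferase that modifies KIN, at 0.26 ± 0.08 (adjusted p = 0.0383). With the replicate number as a block the call was lost (adjusted p = 0.0556). In the SLC30A10 knockout 2 were higher and 3 lower, beside 41.4% of all genes called. METTL22 was higher there by 0.28 ± 0.08 (adjusted p = 0.00936), and POLA1, the catalytic subunit of DNA polymerase alpha, by 0.41 ± 0.04 (adjusted p = 7.86e-09). Of 6 MBT-domain genes and YY1 listed beside SFMBT2, 0 were called in the second knockout by edgeR or DESeq2. At an unadjusted edgeR p under 0.05 there was 1. In the SLC30A10 knockout 3 were lower, beside 20.2% of all genes called lower. These were SFMBT1, YY1 and MBTD1, at -0.23, -0.15 and -0.15.

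The other GATA factors moved in both directions. GATA5 was higher in the SLC30A10 knockout, at 3.65 CPM ± 0.538 against 0.609 CPM ± 0.277 (SD, n = 4 each), a log2 fold change of 2.57 ± 0.23 (adjusted p = 1.06e-09). It was also higher in the second knockout, by 2.90 ± 0.33 (adjusted p = 2.17e-07). That fold rests on 23 to 38 counts against 3 to 4 in the second control set, which is near the floor of 3. GATA4 was lower in both, at -1.19 ± 0.32 (adjusted p = 0.00409) and -1.81 ± 0.35 (adjusted p = 0.000453). Its counts were low, at 8 to 23 against 25 to 40 and at 4 to 22 against 26 to 42. GATA2, the GATA factor of blood stem cells, was higher by 0.17 ± 0.06 in the SLC30A10 knockout (adjusted p = 0.0178), and the cofactor ZFPM1 was lower by 0.44 on the log2 scale, at -0.44 ± 0.14 (adjusted p = 0.0122). GATA6, at 18 to 34 counts in all libraries, was not called in any of the 3 comparisons. Between the control sets 39.3% of all genes were called. Without the 7 genes, the calls there were 2 higher and 1 lower for the hyaluronan list. They were 2 and 3 for ATP synthase, 2 and 2 for TFIID and 0 and 4 for the genes beside KIN. For GATA factors they were 1 and 0, and for the MBT list 3 and 0. The GATA factor called was GATA5, which was not tested with only the 8 libraries of this comparison.

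Markers of liver were at or near 0 beside the high ITIH2. In the second knockout 9 of 10 hepatocyte markers had at most 3 counts, and 6 of them, ALB, APOB, AHSG, SERPINA1, TTR and APOH, were at 0. Their summed level was 0.424 to 0.748 CPM in the second knockout and 0.241 to 0.795 CPM in its control set. Of 8 haematopoietic markers 7 had at most 3 counts in the second knockout, and the summed level ran from 0.427 to 0.811 CPM over all libraries. Of 7 trophoblast markers 4 were at 0 in the second knockout, KRT7, ELF5, CGA and HAND1. Their sum was 83.1 to 87.9 CPM there and 83.3 to 89.7 CPM in its control set, from TFAP2A, TFAP2C and PGF. Of 6 fibroblast markers 5 had at most 3 counts in the second knockout, all but COL1A1, and 3 in its control set. The 6 markers summed to 29.7 to 37.7 CPM in the second knockout and 33.6 to 40.2 CPM in its control set.

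Other genes followed the same pattern over the 16 libraries from elsewhere in the genome. Over 11697 genes averaging 5 CPM or more, those closest to ITIH2 by Pearson's r of log2 CPM were ABCB1, a drug efflux pump on chromosome 7 (r = 0.98), TRIM32, a ubiquitin ligase on chromosome 9 (0.97), PDE6B on chromosome 4 (0.97), H2AFY2 on chromosome 10 (0.96) and LINC00265 on chromosome 7 (0.96). Those closest to the mean of KIN, ATP5C1 and TAF3 were TRIM32, ABCB1, HAUS8, LINC00265 and MYO9B (r = 0.98 to 0.99). HAUS8 and MYO9B both lie on chromosome 19. ABCB1 was at 24.9 CPM in the second knockout and 8.38 CPM in its control set. Among the genes themselves r was 0.989 for KIN and ATP5C1, 0.99 for KIN and TAF3 and 0.972 for KIN and ITIH2. The libraries fall into 4 groups and these values follow the second knockout, so they are descriptions.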

How the data were processed

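Poly-A RNA of HAP1 cells was sequenced as paired ends. The deposited raw counts per gene, and a normalized signal that the authors derived from them, cover the 16 libraries. The submitters' processing notes name HISAT2, featureCounts, DESeq2 and the builds hg38 and GRCh38, without roles or versions. The annotation and the use of strand are not given in the sources used here. The deposited normalized signal times 1 factor per library returned the counts within 5.21e-06, and only the counts were tested.

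Counts were fitted with edgeR 4.0.16 in R 4.3.3 (filterByExpr with a minimum count of 10 and total of 15, TMM scaling, quasi-likelihood F test, 1 mean per group over all 16 libraries, Benjamini-Hochberg adjustment over 15569 genes, threshold 0.05). SE is the log2 fold change divided by the square root of F. The script was checked on simulated counts. DESeq2 1.42.0, other scalings, no filter, subsets of libraries, other thresholds and the replicate number as a block were alternatives. Replicate numbers did not pair the libraries, since correlations of same-numbered deviations ran from -0.103 to 0.116. Replicate libraries differed by more than sampling noise (chi-square per degree of freedom 1.64 to 6.83). A count of 3 was taken as the floor, 0.180 to 0.187 CPM.

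The genes and the gene lists were chosen with earlier results of these data known. Named genes are the 7 genes, tested genes between them, the nearest tested gene on each side, the 5 genes most like each pattern and called members of the lists; up to 4 for each list and comparison; CAMK1D and listed genes near 0 counts or not called were named after their values were seen. The gene deleted in the second knockout is not reported here.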

Additional observations from a re-analysis of the deposited data

Results flagged for a closer look

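Gaps within groups of 4 libraries were examined in 28 groups, where chance flags about 1 in 20, and 3 had a library farther from the rest than Dixon's 95% critical value allows. ITIH2 in the second knockout had library 1 above the others, with a gap of 0.837 of the range, at 98.0 CPM against 92.0 to 93.0. GATA3 had library 3 of the SLC30A10 knockout above the others (0.872 of the range, 10.8 CPM) and library 3 of the second knockout below them (0.836 of the range, 9.51 CPM).

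For 3 genes every library of the second knockout lay above the mean of its control set, and every library of the SLC30A10 knockout lay below the mean of its own. The log2 fold change in the second knockout minus that in the SLC30A10 knockout was 10.8 for ITIH2, 1.7 for KIN and 1.72 for TAF3. These differences were not tested, because the second knockout was used to choose the genes. The lower ITIH2 value in the SLC30A10 knockout rests on control libraries 1 and 4, since its log2 fold change was 0.27 without them. KIN was not called in the SLC30A10 knockout (edgeR adjusted p = 0.0725).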

How the results depend on the processing

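Requiring a fold change of at least 2 left 702 of 15569 genes called in the SLC30A10 knockout. It left 218 between the control sets and 358 in the second knockout. Of the 6 described genes tested it left 2 in the SLC30A10 knockout, GATA3 and ITIH2. Of these, ITIH2 passed the filter only through the second knockout. An adjusted p under 0.01 left 1229 genes in the second knockout. Leaving out 1 library at a time gave 5657 to 6154, 5053 to 6125 and 1570 to 2146 genes in these comparisons. With ITIH2 counted, it gave 3 to 4 and 0 to 1 of the 6 described genes in the first pair. With ITIH2 counted, the fit of all 16 libraries called 4 of 6 described genes in the SLC30A10 knockout, beside 41.4% of all genes. Between the control sets it called 1 of 6, beside 39.3%. There 0 were called with only the 8 libraries of the comparison, at an adjusted p under 0.01, or without SLC30A10 control libraries 1 and 4 together (1, 1 and 0 at an unadjusted edgeR p under 0.05), against 1 by DESeq2. Leaving out those libraries together, like the deposited size factors, was added after seeing the data, and it turned ITIH2 to 0.27 in the SLC30A10 knockout and -0.64 between the control sets. With only 8 libraries ITIH2 did not pass the filter on low counts in the comparisons that leave out the second knockout. GATA3 between the control sets lies at 0 and changed sign without the filter (-0.0014) and within the range without 1 library (-0.0381 to 0.0612). With both control sets pooled ITIH2 in the second knockout was 7.61. The replicate numbers as a block gave 6497, 6181 and 2160 genes, and 4 and 1 of the described genes with ITIH2 counted. They changed no call among the described genes, while METTL22 was no longer called in the second knockout. Other scalings moved the median of all genes by at most 0.0158. Depth limits ITIH5 and, outside the second knockout, ITIH2, which are near the floor of 3 counts.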
